A study of Homo sapiens with 118 samples.

Results

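The step from 10.29 µM to 44 µM tacedinaline was examined in HepaRG cells as the difference between 3 libraries of the group named C5 (44 µM) and 3 libraries of the group named C3 (10.29 µM). These 6 libraries were chosen by their labels alone, from 118 libraries of 8 histone deacetylase inhibitors at 5 concentrations. HepaRG is an established human liver line that arose from a liver tumour associated with hepatitis C, and it can be differentiated into hepatocyte-like and biliary-like cells. Every group received previously frozen differentiated cells, which were exposed daily for 72 h, and the 3 replicates of a group came from 3 different batches of HepaRG cells that recur in every group. The other tacedinaline groups were C1 (1.14 µM), C2 (3.43 µM) and C4 (30.9 µM). Solvent controls were not analysed here, so a response that was already complete at C1 is not seen.

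Tacedinaline, also called CI-994, is a benzamide that inhibits class I histone deacetylases. These enzymes remove acetyl groups from histone tails as parts of large corepressor complexes, and their inhibition raises acetylation and changes transcription in both directions. In differentiated hepatocyte-like cells the genes at stake include those for plasma proteins, for drug metabolism and for the transcription factors that keep these programmes active. Transcripts were counted by TempO-Seq. In this assay adjacent detector oligonucleotides are joined on their target RNA in the lysate, and the joined product is amplified and sequenced. A feature is 1 detector probe, and a gene may have several.

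The C3 libraries held 1564260 to 2238735 counts and the C5 libraries 1739105 to 2523787, while all 15 tacedinaline libraries held 1243102 to 4656290. Levels are given in CPM, the count scaled to a common library size. Correlations of log2 CPM between libraries lay at 0.946 to 0.949 within C3, at 0.922 to 0.927 within C5 and at 0.870 to 0.882 between them. The labels call the cells liver progenitor cells. Their hepatic identity was checked on 8 hepatocyte markers, whose summed level was 32890 to 45913 CPM at C1, 11306 to 14192 CPM at C3 and 2912 to 4173 CPM at C5. At C5 TAT was the only one of these markers with at most 3 counts in every library, a level called the floor below. Of 5 biliary or progenitor markers, CFTR and EPCAM were at the floor in C3 and C5, and the summed level was 108 to 145 CPM at C3 and 101 to 138 CPM at C5. The 5 mesenchymal markers summed to 181 to 233 CPM at C3 and 143 to 180 CPM at C5. Of 3 macrophage markers, CD163 and MARCO were at the floor at both concentrations and the sum was 33.3 to 54.8 CPM at C3 and 24.3 to 44.0 CPM at C5, while the 3 endothelial markers summed to at most 1.80 CPM. Fewer cells of a type and less RNA per cell cannot be told apart in these bulk lysates.

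Between C3 and C5 the cells lost a large part of what remained of their hepatic transcripts, with fibrinogen, apolipoprotein B, alcohol dehydrogenase and cytochrome P450 features falling by 3.16 to 5.26 on the log2 scale, while metallothioneins, ornithine decarboxylase, HDAC3 and the lipocalin LCN2 rose. Of 12461 features tested, 1057 rose, which is 8.48% of those tested, and 1649 fell, which is 13.2%. A feature was called where the Benjamini-Hochberg adjusted p of edgeR's quasi-likelihood test was under 0.05 and the fold change was at least 1.5. Changes of at least 4-fold were found for 108 rising and 471 falling features. The direction was the same in 3 of 3 HepaRG batches for 2653 of the 2706 calls. The 3 C5 libraries lay entirely above or below the 3 C3 libraries for 2569 of the calls, against 38.4% of all features tested. Both counts come from the libraries that gave the calls, so they describe the calls and are not independent support for them. Without HepaRG batch 2 in every group, 638 features rose and 1184 fell.

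Much of the late change was already present at C4. Features that fell further had a median log2 change of -1.23 at C4 and of -1.84 at C5, both against C3, and features that fell only late had -0.82 and -1.45. From C3 to C4, 543 features rose (4.36% of those tested) and 941 fell (7.55%), and from C4 to C5, 40 rose (0.321%) and 228 fell (1.83%). The earlier step, from C1 to C3, had 678 rising (5.44%) and 805 falling features (6.46%). These counts were 1071 and 634 when libraries were scaled by their totals alone, and 387 and 536 without batch 2. The concentration rose 9-fold in the early step and 4.28-fold in the late step, so the sizes of the steps are not matched. Both steps use the same C3 libraries, and the difference between them was tested directly, as late minus early change. It passed an adjusted p of 0.05 for 706 features (5.67%), of which 159 were positive and 547 negative.

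**Figure D1:**
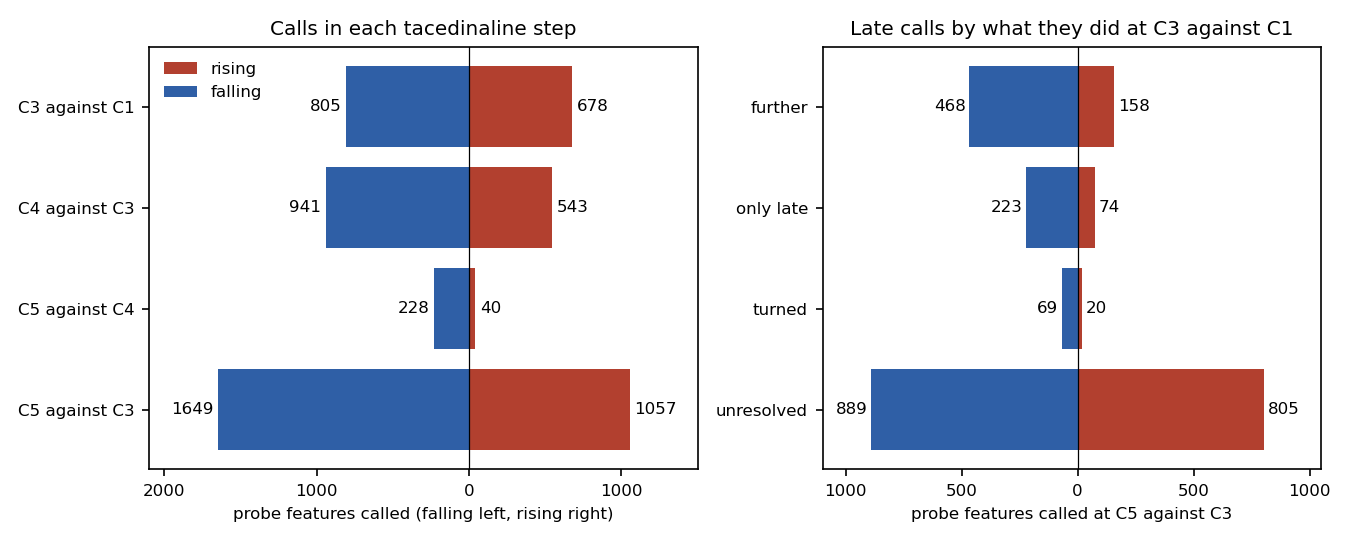
Number of probe features that rose (red, right) or fell (blue, left) in each tacedinaline step, and the features called at C5 against C3 divided by what they did at C3 against C1. The late step had 1057 rising and 1649 falling features, of which 158 and 468 went further in the direction of the early step and 74 and 223 changed only late.

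Late calls were divided by the early step. "Further" features were also called at C3 against C1 in the same direction, and there were 158 that rose and 468 that fell. "Only late" features were not called early, changed by less than 1.5-fold there and had a late change that exceeded the early one in its own direction by the test of the difference, and there were 74 that rose and 223 that fell. A call in the opposite direction in the early step ("turned") was made for 20 rising and 69 falling features. The remaining 805 rising and 889 falling features could not be placed. Without batch 2, 74 rising and 319 falling features went further, and with libraries scaled by their totals alone 272 rising features did. The only late class was smaller without any 1 batch, with 16 rising and 134 falling features without batch 1, 8 and 89 without batch 2, and 38 and 168 without batch 3. Leaving out only replicate 1, 2 or 3 of C3 left 18, 19 and 32 rising features in it, and 145 to 158 falling ones. When the changes were compared per doubling of concentration, 174 rising and 382 falling features were only late.

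Plasma proteins made by hepatocytes fell together, and all of those called had also fallen early. Of 30 features tested, 28 fell and none rose, with a median log2 change of -1.73 against 0.002 over all features tested, and all 30 had fallen in the early step. The fibrinogen chains, which polymerise in clotting, were among the features with the smallest p. FGA stood at 5040.4, 6085 and 4308 CPM in replicates 1, 2 and 3 of C3 and at 415, 464 and 349 CPM in those of C5. FGB had 2487, 2985 and 2401 CPM at C3 and 333, 299.8 and 249.8 CPM at C5, and FGG went from 3644, 3979.7 and 3457 to 442, 389 and 369 CPM. Every C5 library of the fibrinogens lay far below every C3 library. The log2 changes were -3.65 ± 0.13 (SE) for FGA, -3.16 ± 0.13 for FGB and -3.21 ± 0.12 for FGG, with adjusted p of 2.29e-24, 9.33e-23 and 1.93e-23 by edgeR. In the early step these features had fallen by less, with log2 changes of -0.98, -1.02 and -0.82, and the difference between the steps passed its test for each (adjusted p 1.76e-13, 1.13e-10 and 1.51e-12). These early falls were smaller than the early median of the list, so the fibrinogens do not stand for the list as a whole.

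APOB, the structural protein of very-low-density lipoproteins, fell from 1505, 1595 and 1337 CPM to 157, 188 and 128 CPM, a log2 change of -3.23 ± 0.13. A1CF, the cofactor of APOB messenger RNA editing, dropped from 72.2, 83.5 and 96.2 CPM to 1.63, 1.5 and 2.25 CPM, which at C5 were only 3, 4 and 5 counts. Its log2 change was -5.51 ± 0.35 in the late and -1.26 in the early step. Albumin (ALB), the main protein of plasma, fell in both steps, with a mean of 24221 ± 4765 CPM (SD, n = 3) at C1, 5163 ± 800.0 at C3 and 1277 ± 347 at C5. The late log2 change of ALB was -2.02 ± 0.14 and the early one -2.23, and the difference between the steps was not called (adjusted p = 0.725).

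The promoters of the fibrinogen genes are printed because these neighbouring genes on chromosome 4 fell together. They are the 250 bases before the RefSeq transcription start on GRCh38.p14, in the direction of the gene, with each match to GTTAAT on either strand in capitals (ATTAAC is its reverse). GTTAAT is the core of the recognition sequence of the hepatocyte factor HNF1.
FGA (chr4:154590743-154590992, minus strand): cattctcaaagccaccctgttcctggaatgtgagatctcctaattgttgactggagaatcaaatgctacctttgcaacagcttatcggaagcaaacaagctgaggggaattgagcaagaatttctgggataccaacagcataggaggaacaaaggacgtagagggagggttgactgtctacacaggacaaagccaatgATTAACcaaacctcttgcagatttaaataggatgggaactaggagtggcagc
FGB (chr4:154562730-154562979, plus strand): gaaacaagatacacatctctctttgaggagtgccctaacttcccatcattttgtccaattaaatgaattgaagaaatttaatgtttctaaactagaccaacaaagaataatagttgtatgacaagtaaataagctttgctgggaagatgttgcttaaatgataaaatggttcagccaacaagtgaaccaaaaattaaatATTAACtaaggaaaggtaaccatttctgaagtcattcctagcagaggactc
FGG (chr4:154612657-154612906, minus strand): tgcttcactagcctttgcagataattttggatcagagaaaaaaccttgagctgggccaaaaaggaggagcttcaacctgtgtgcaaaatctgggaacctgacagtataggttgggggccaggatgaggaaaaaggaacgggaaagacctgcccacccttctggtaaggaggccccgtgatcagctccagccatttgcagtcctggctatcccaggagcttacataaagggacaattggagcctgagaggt
FGA and FGB held 1 match each and FGG held 0. Of all 27305 RefSeq promoters of this length, 6.22% held the motif. Among the genes of the table, 11233 were tested and 82.1% had a promoter sequence. The motif stood in 3.69% of the 9226 promoters of tested genes, in 7.73% of 1242 promoters of genes that fell late and in 1.60% of 815 promoters of genes that rose late. The median GC content of the same 250 bases was 64.4% over tested genes, 62.0% over genes that fell and 66.0% over genes that rose. The 180 promoters of genes that fell only late had a median GC content of 61.4%, and the 63 of genes that rose only late 66.8%. These are descriptions of letters and no test was made.

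Enzymes and transporters of the hepatocyte fell in each group listed here, and no member rose. The count was 27 of 40 drug-metabolising features (median log2 change -1.73), 17 of 27 features of bile acid synthesis and transport (-2.59), 13 of 26 of urea cycle and amino acid breakdown (-0.88), 6 of 9 of hepatic glucose metabolism (-3.21), 7 of 16 of fatty acid oxidation (-0.54) and 7 of 27 of cholesterol synthesis and uptake (-0.45). Over all features 13.2% fell. The median of the drug-metabolising features was -2.63 when only the C3 and C5 libraries were fitted, that of hepatic glucose metabolism was -2.01 after thinning to the smallest total, that of fatty acid oxidation was -0.35 under DESeq2, and 11 cholesterol features fell without replicate 3 of C5. The early step had already lowered 29, 19, 9, 4, 7 and 13 features of these groups, in the order above, against 6.46% of all features. Their early medians were -1.79, -2.49, -0.84, -1.98, -0.40 and -0.76, so this loss was not mainly late. In that step 1 drug-metabolising and 1 fatty acid oxidation feature rose. CYP3A4, the main drug-oxidising cytochrome P450 of the adult liver, had 149, 142 and 72.2 CPM at C3 and 3.81, 1.88 and 4.05 CPM at C5, after a mean of 654 ± 223 CPM at C1. The late log2 change was -5.26 ± 0.41 (adjusted p 9.27e-14) and exceeded the early one of -2.41 (adjusted p of the difference 0.000992). ADH1A, a class I alcohol dehydrogenase, stood at 495, 524 and 394 CPM at C3 and at 13.6, 17.3 and 14.4 CPM at C5. All C5 libraries of both features lay below all C3 libraries. ADH1B fell by 4.45 on the log2 scale and the glutathione transferase GSTA1 by 3.13. ADH4, a further alcohol dehydrogenase, was at the floor at C5 and was at least 41.4-fold lower than at C3. Probes of the ADH1, CYP3A and UGT1A families may capture near-identical transcripts of one another.

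TDO2 and TAT, which open the breakdown of tryptophan and of tyrosine, changed only late. TDO2 had 432, 404 and 399 CPM at C1, 266, 363 and 292 CPM at C3 and 8.72, 3.76 and 4.5 CPM at C5. Its C1 and C3 values lay within a 2-fold range, and its C5 values were lower by well over an order of magnitude. The log2 change was -5.81 ± 0.23 in the late step (adjusted p 9.33e-23) and -0.42 in the early step (adjusted p 0.0649), and the difference was called (adjusted p 8.23e-16). TAT had 47.4, 47.2 and 62.9 CPM at C3 and lay at the floor at C5, with 3, 1 and 1 counts, so it was at least 38.3-fold lower. AGXT, which detoxifies glyoxylate, and HPD of tyrosine breakdown went further, with late log2 changes of -2.99 ± 0.26 and -3.34 ± 0.28 after -3.29 and -2.85.

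Lipid genes were found in both classes. CIDEC, a protein of lipid droplets, had 128, 131 and 121 CPM at C3 and 1.09, 4.51 and 4.95 CPM at C5. It changed by -5.08 ± 0.28 on the log2 scale in the late step and by -0.50 in the early step, and belonged to the only late class. ACSL1, which activates long-chain fatty acids, was also only late, with 692, 591 and 533 CPM at C3 and 174, 204 and 204 CPM at C5. In the cholesterol pathway HMGCS1 and MSMO1 went further with log2 changes of -1.82 ± 0.17 and -1.36 ± 0.11.

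Transcription factors of the hepatocyte followed the same direction, with 12 of 21 features falling, against 13.2% of all features, none rising and a median log2 change of -1.35. NR1H4, the bile acid receptor, fell further and was at least 9.58-fold lower at C5, where it lay at the floor. PROX1, a factor of hepatic development, fell further from 42.6, 59.6 and 41.9 CPM to 18.5, 9.41 and 6.3 CPM. NR5A2, a nuclear receptor of bile acid and cholesterol handling, and CREB3L3, a membrane-bound factor of lipid metabolism, fell only late, with log2 changes of -2.31 ± 0.27 and -1.82 ± 0.28 after -0.27 and -0.05. HNF4A, a master regulator of hepatocyte genes, had 11.3, 14.6 and 11.7 CPM at C3 and 1.63, 1.5 and 0 CPM at C5, a log2 change of -3.53 ± 0.69 (adjusted p 0.000109), and could not be placed in a class. When only the 6 C3 and C5 libraries were fitted, 7 features of this list were called in place of 12. NR1I2, NR1I3 and PPARA were called through several probes, so these are counts of features and not of factors. Each PPARA probe lost its call in 7 of 18 alternative fits.

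**Figure D2:**
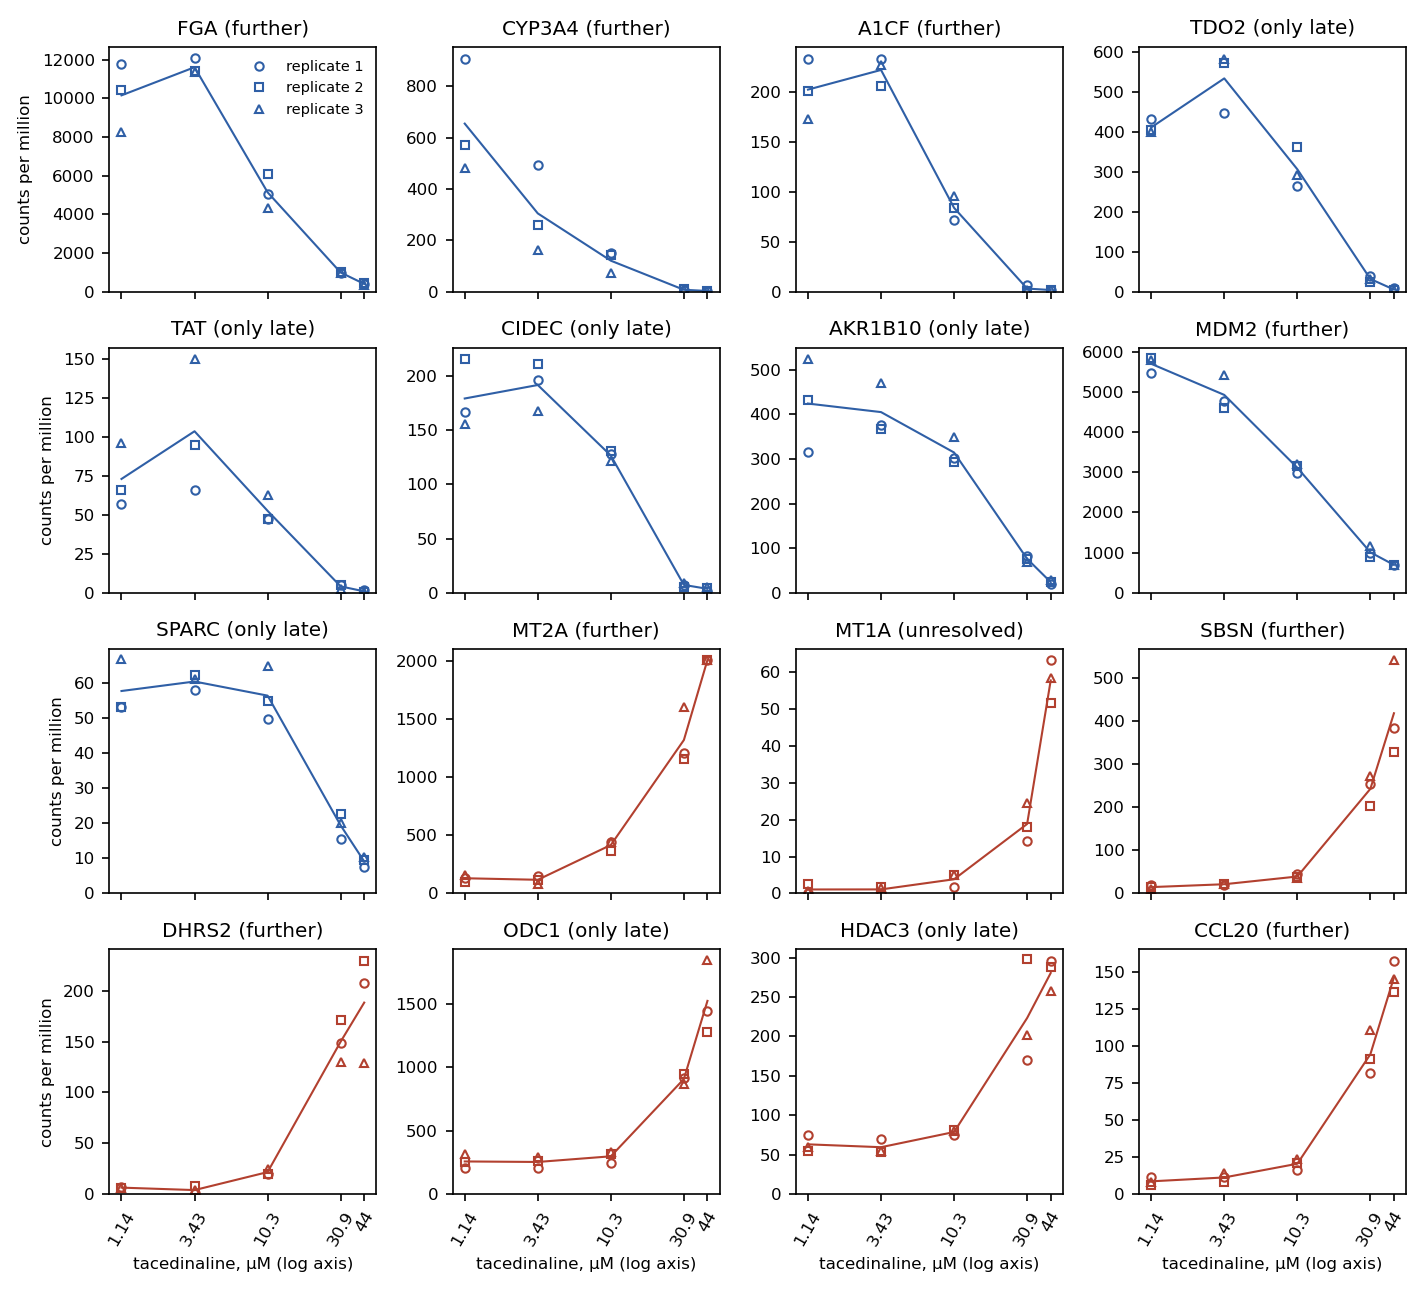
Level in CPM against tacedinaline concentration (log axis, µM) for 16 features, with the 3 replicates as open symbols, their mean as a line and the class in brackets. FGA, CYP3A4 and A1CF fell at C3 and again above it, and SBSN, DHRS2 and CCL20 rose at C3 and again above it. TDO2, TAT, CIDEC, AKR1B10 and SPARC fell above C3 without a call at C3 against C1. ODC1 and HDAC3 rose above C3, likewise without an early call, and MT2A also rose above C3.

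HDAC3 was the 1 feature called of 14 for histone deacetylases, a list that also holds enzymes outside class I. Over all features 8.48% rose and 13.2% fell, so the number of calls in this list was not above the share over all features. A falling feature of this list was also called under DESeq2, with no filter on low counts, after thinning, and without batch 3 or replicate 3 of C5. HDAC3 is the catalytic subunit of the NCOR corepressor complex. It had 75.4, 54.6 and 59.9 CPM at C1, 75.2, 81.3 and 80.2 CPM at C3 and 296, 288 and 257 CPM at C5. All C5 libraries were more than 3 times as high as every C3 library, and C1 and C3 were close to each other. The log2 change was 1.83 ± 0.18 late (adjusted p 1.6e-10) and 0.34 early (adjusted p 0.265), and the feature was only late (adjusted p of the difference 0.00283). The other class I enzymes were not called. HDAC2 had a log2 change of 0.42 ± 0.13, with an adjusted p of 0.0131 and less than the required fold, HDAC1 had 0.41 ± 0.30 (adjusted p 0.349) and HDAC8 had 0.23 ± 0.32 (adjusted p 0.659).

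Partners of these enzymes were called about as often as all features, of which 8.48% rose and 13.2% fell. Of 26 features of corepressor subunits, 2 rose and 3 fell, and of 19 features of acetyltransferases and acetyl-lysine readers 2 rose and 1 fell. Without replicate 2 of C3 the rising features numbered 0 and 1, and without batch 2 there were 0 in both groups. MTA1 and CHD3, subunits of the NuRD complex, fell by 1.16 and 1.44 on the log2 scale. KAT2B, an acetyltransferase, had 117, 107 and 75.9 CPM at C3 and 47.4, 45.5 and 53.1 CPM at C5. Of 15 histone features 5 rose and 2 fell. Only 2 rose without replicate 2 of C5, 3 rose without replicate 2 of C3 or without any 1 batch, and 0 fell without replicate 3 of C3. HIST1H4H, a histone H4 gene, rose from 21.3, 29.3 and 34.5 CPM to 69.2, 85.8 and 79.2 CPM. Medians of these groups lay at 0.13, 0.13 and 0.35.

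Metallothioneins, small cysteine-rich proteins that bind zinc and copper, rose. Of 10 listed genes, 5 had a feature with enough counts to be tested, and each of these 5 was called, against 8.48% of all features, with a median log2 change of 1.90 after 1.48 in the early step. The low-count filter used every tacedinaline library, so a feature low at C3, such as MT1A, could enter through groups where it was high. The count of 5 therefore does not describe the whole list. Untested probes of the list had at most 3 counts in any C3 library and at most 13 in any C5 library. MT2A had 444, 363 and 440.3 CPM at C3 and 2006, 2003 and 2003 CPM at C5, a log2 change of 2.27 ± 0.16 (adjusted p 1.01e-14). MT1A had 1.74, 4.88 and 4.93 CPM at C3 and 63.2, 51.5 and 58.5 CPM at C5, a log2 change of 3.94 ± 0.48. Each C5 library of these features was above every C3 library. MT1E was only late, with log2 changes of 1.90 ± 0.18 late and 0.28 early, whereas MT1M went further with 1.75 ± 0.22 and 1.37. MT1X rose by 1.23 ± 0.45 (adjusted p 0.0384), but its call was lost in 8 of 18 alternative fits, with an adjusted p of 0.108 when all libraries were thinned to the smallest total. The MT1 genes are near-identical copies, so their probes may share transcripts.

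The MT2A and MT1X promoters are shown for the metal response element, the site through which zinc induces metallothioneins. Matches to its core, TGCACNC or TGCGCNC on either strand, are in capitals, and matches that overlap were counted as 1 site. The sequences are the 250 bases before the RefSeq start on GRCh38.p14.
MT2A (chr16:56608334-56608583, plus strand): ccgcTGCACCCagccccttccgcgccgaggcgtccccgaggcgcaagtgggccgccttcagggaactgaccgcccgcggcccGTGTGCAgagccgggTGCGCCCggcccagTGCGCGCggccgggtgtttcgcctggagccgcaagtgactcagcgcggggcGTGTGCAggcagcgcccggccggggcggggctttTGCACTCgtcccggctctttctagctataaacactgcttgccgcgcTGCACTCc
MT1X (chr16:56682220-56682469, plus strand): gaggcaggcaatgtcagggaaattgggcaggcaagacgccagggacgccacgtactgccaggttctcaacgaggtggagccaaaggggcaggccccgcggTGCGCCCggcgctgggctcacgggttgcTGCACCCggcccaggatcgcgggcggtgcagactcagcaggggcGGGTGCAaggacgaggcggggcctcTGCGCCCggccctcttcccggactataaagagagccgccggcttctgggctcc
MT2A held 7 sites and MT1X 4. At least 1 match was found in 24.7% of all 27305 promoters of this length, in 32.5% of those of tested genes, in 36.0% of those of genes that rose late and in 28.7% of those of genes that fell late.

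Other rising features were named for the size of their change or for their p. SBSN, suprabasin of stratified epithelia, went further, with 45.6, 37.4 and 35.2 CPM at C3 and 385, 329 and 543 CPM at C5, a log2 change of 3.40 ± 0.20 (adjusted p 3.66e-17) after 1.51. DHRS2, a short-chain dehydrogenase, had a mean of 21.8 ± 3.04 CPM (SD, n = 3) at C3 and 207, 229 and 129 CPM in the replicates of C5, with all C5 libraries at least 5 times as high as the C3 libraries. PRR20G, of a family of near-identical copies, rose from 8.26, 5.96 and 13 CPM to 252, 229 and 621 CPM. The seminal protein gene SEMG2, the acetylcholine receptor gene CHRM4 and the tubulin gene TUBA1A rose from at most 3.79 CPM in any C3 library to between 12.5 and 38.4 CPM in the C5 libraries. GAST, the gene of the hormone gastrin, lay at the floor at C3 and was at least 11.6-fold higher at C5.

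ODC1, the rate-limiting enzyme of polyamine synthesis, had the smallest p of the features that rose only late. One of its probes had 207, 253 and 315 CPM at C1, 247, 317 and 333 CPM at C3 and 1441, 1279.8 and 1845 CPM at C5. The other probe had 60.4, 49.3 and 36.4 CPM at C3 and 365, 334 and 375 CPM at C5. For the former, C1 and C3 overlapped, and for both C5 was several times higher than C3 in every replicate. The late log2 changes were 2.35 ± 0.15 and 2.86 ± 0.22, with adjusted p of 7.33e-16 and 5.85e-14, against early changes of 0.19 and 0.38. LYAR, a nucleolar protein, MEX3B, an RNA-binding protein, and SEMA3C, a secreted semaphorin, also rose only late, by 2.11 ± 0.29, 2.09 ± 0.41 and 2.05 ± 0.25 on the log2 scale.

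Several genes of the matrix fell at the late step without an earlier fall. Of 31 features of extracellular matrix and stroma, 14 fell and 2 rose, against 13.2% and 8.48% of all features, with a median log2 change of -0.40 after 0.11 in the early step, and 9 of the 16 called were only late. The median was -0.79 without replicate 3 of C3, -0.68 without replicate 2 of C5, -0.72 and -0.60 without batches 2 and 3, and -0.66 when only the C3 and C5 libraries were fitted. Only 1 feature rose without batch 2 or 3, without replicate 1 or 3 of C3 or without replicate 3 of C5. SPARC, a collagen-binding glycoprotein, had 53.2, 53 and 66.8 CPM at C1, 49.6, 54.7 and 64.8 CPM at C3 and 7.63, 9.41 and 10.4 CPM at C5. C1 and C3 overlapped, and all C5 libraries were lower by 4-fold or more. Its log2 change was -2.61 ± 0.28 late (adjusted p 5.17e-10) and -0.05 early. A second SPARC probe also fell, but its call was lost in 4 of 18 alternative fits, with log2 changes of -1.41 to -1.59 in those. POSTN, periostin, fell only late by 2.73 on the log2 scale. TNC, tenascin, turned, with a rise of 1.13 early and a change of -2.51 ± 0.20 late. The 3 probes for fibronectin (FN1) fell by 0.85 to 0.87. CCN2, a matricellular growth factor, rose only late, from 21.3, 19.5 and 21 CPM to 57.2, 75.6 and 53.6 CPM. The 5 mesenchymal markers given above belong to the same list, and they did not move together. LUM, lumican, fell only late, from 141, 104 and 104 CPM to 56.7, 51.9 and 54.5 CPM, a log2 change of -1.10 ± 0.21. COL1A1, a chain of type I collagen, stood at 15.7, 22.8 and 15.4 CPM at C3 and 29.4, 26.7 and 30.2 CPM at C5 and was not called (log2 change 0.68 ± 0.34, adjusted p 0.15), nor were PDGFRB, DCN and COL3A1.

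**Figure D3:**
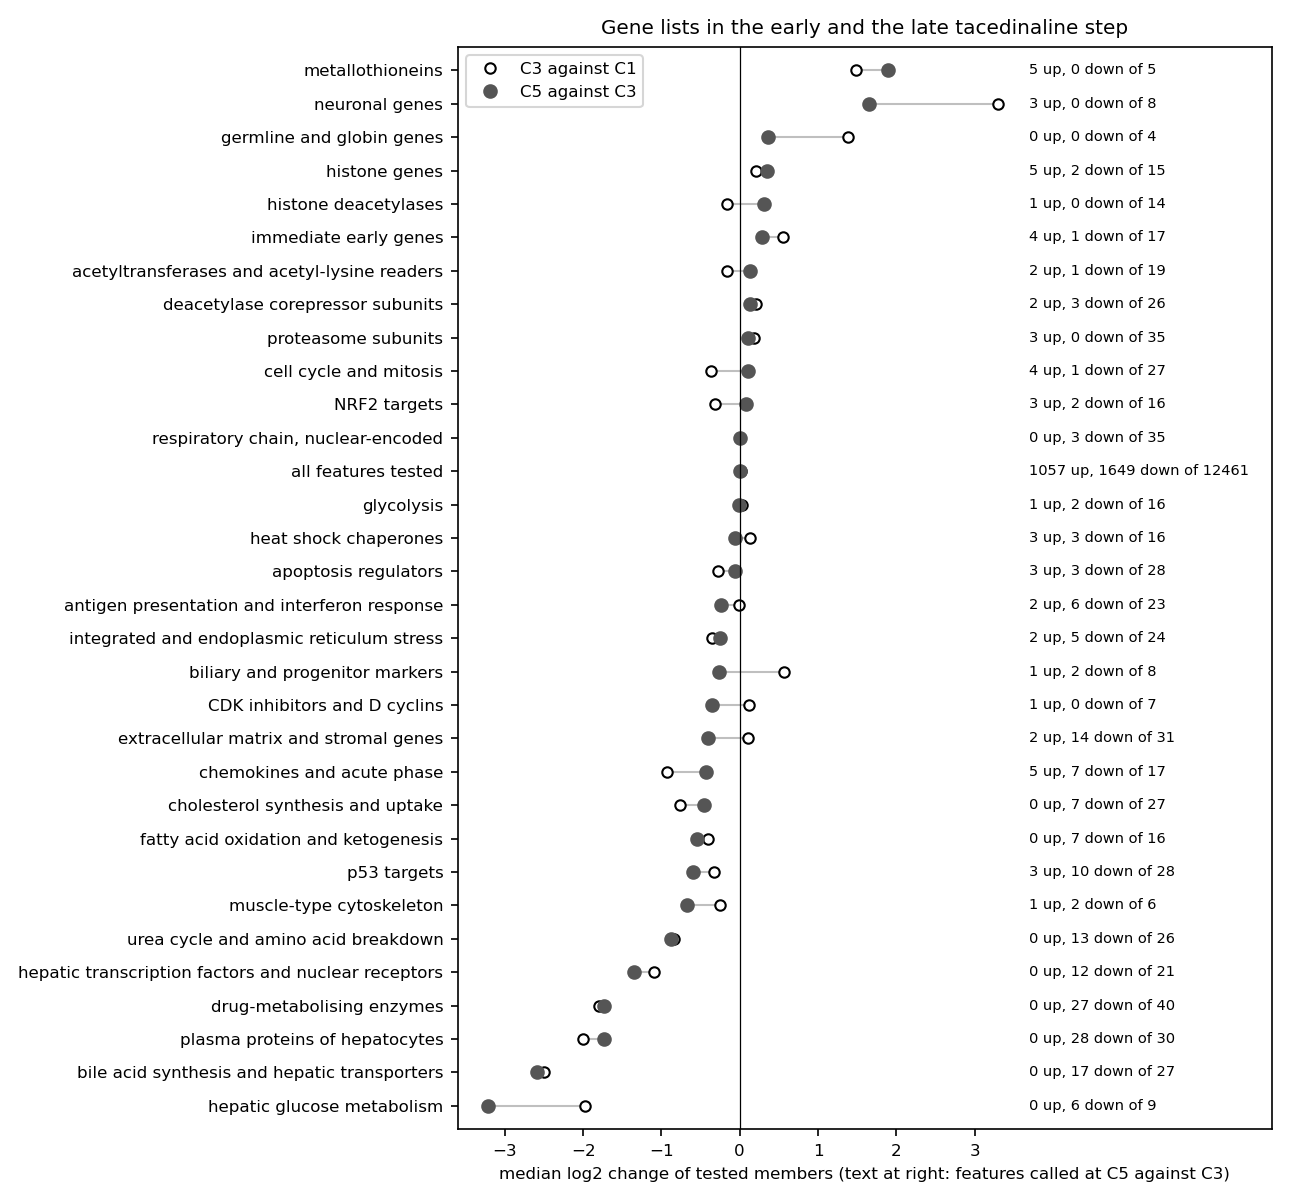
Median log2 change of the tested features of 31 gene lists and of all features tested in the early step (C3 against C1, open circles) and in the late step (C5 against C3, filled circles), with the number of features called in the late step. Lists of hepatic function lie at the bottom with medians down to -3.21, and metallothioneins at the top with a median of 1.90.

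Of 28 features of targets of the tumour suppressor p53, 10 fell and 3 rose, against 13.2% and 8.48% of all features, with a median log2 change of -0.59 that was -1.01 without batch 3 and -0.90 without replicate 3 of C5. MDM2, the ubiquitin ligase that p53 induces and that degrades p53, was covered by 3 probes, which all went further. One of them had 5479, 5844 and 5787 CPM at C1, 2982, 3165 and 3194 CPM at C3 and 699, 678 and 698 CPM at C5. The values of the 3 groups did not overlap. The late log2 change was -2.17 ± 0.11 (adjusted p 1.02e-19) after -0.87, and the other probes changed by -1.82 ± 0.16 and -3.15 ± 0.23. RRM2B, a ribonucleotide reductase subunit for DNA repair, fell only late by 1.30, and the death receptor FAS went further by -1.24 ± 0.20. GDF15, a stress-induced cytokine, rose in both of its probes, by 1.34 ± 0.24 and 1.32 ± 0.16.

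Apoptosis regulators were called about as often as all features, of which 8.48% rose and 13.2% fell. Of 28 apoptosis features 3 rose and 3 fell. BAX, a pore-forming executioner, fell by 0.90, BCL2L11, a BH3-only activator, rose by 0.95 ± 0.20, and BIRC3, an inhibitor of apoptosis, rose by 0.64 ± 0.11. Of 27 cell cycle features 4 rose and 1 fell, and 2 rose without batch 2 or 3, without replicate 2 of C3 or without replicate 3 of C5. TYMS, the thymidylate synthase, fell from 234, 267 and 297 CPM to 101, 112 and 134 CPM. CDC6, which licenses replication origins, rose from 27.8, 38.5 and 33.3 CPM to 49, 61.3 and 105 CPM, and that call was lost without batch 3 (edgeR adjusted p 0.107) and without replicate 3 of C5 alone (0.0740).

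Genes of chemokines, the acute phase and inflammatory regulation moved in both directions. Of 17 features 5 rose and 7 fell, against 8.48% and 13.2% of all features, and 3 rose without batch 2. The median log2 change was -0.43, and its sign turned to 0.44 when only the C3 and C5 libraries were fitted. CCL20, a chemokine for lymphocytes and dendritic cells, had 16.5, 21.1 and 24.1 CPM at C3 and 157, 136 and 145 CPM at C5. LCN2, a lipocalin that binds bacterial siderophores, had 94.8, 87.3 and 75.9 CPM at C3 and 554, 565 and 536 CPM at C5. Neither gene showed overlap between the groups, and the log2 changes were 2.84 ± 0.24 and 2.68 ± 0.19 (adjusted p 2.2e-12 and 1.33e-14). SAA2, a serum amyloid A protein, fell only late, from 5829, 8179 and 7219.9 CPM to 2506, 2413 and 2203 CPM, after an early log2 change of 0.53. ORM1, orosomucoid, went further, by -1.83 ± 0.15 after -1.74.

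NRF2 targets, which serve glutathione and redox metabolism, had 3 of 16 features rising and 2 falling, against 8.48% and 13.2% of all features. GCLC, the catalytic subunit of the enzyme that limits glutathione synthesis, rose only late from 74.3, 85.6 and 97.4 CPM to 334, 409.7 and 296 CPM. SRXN1, sulfiredoxin, went further with 1.53 ± 0.13 after 1.14. AKR1B10, an aldo-keto reductase of retinal, fell only late, with a mean of 315 ± 29.7 CPM (SD, n = 3) at C3 and 18.5, 24.5 and 27.9 CPM in the replicates of C5 and a log2 change of -3.72 ± 0.19 (adjusted p 2.42e-19). No C5 library of these features overlapped with a C3 library.

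**Figure D4:**
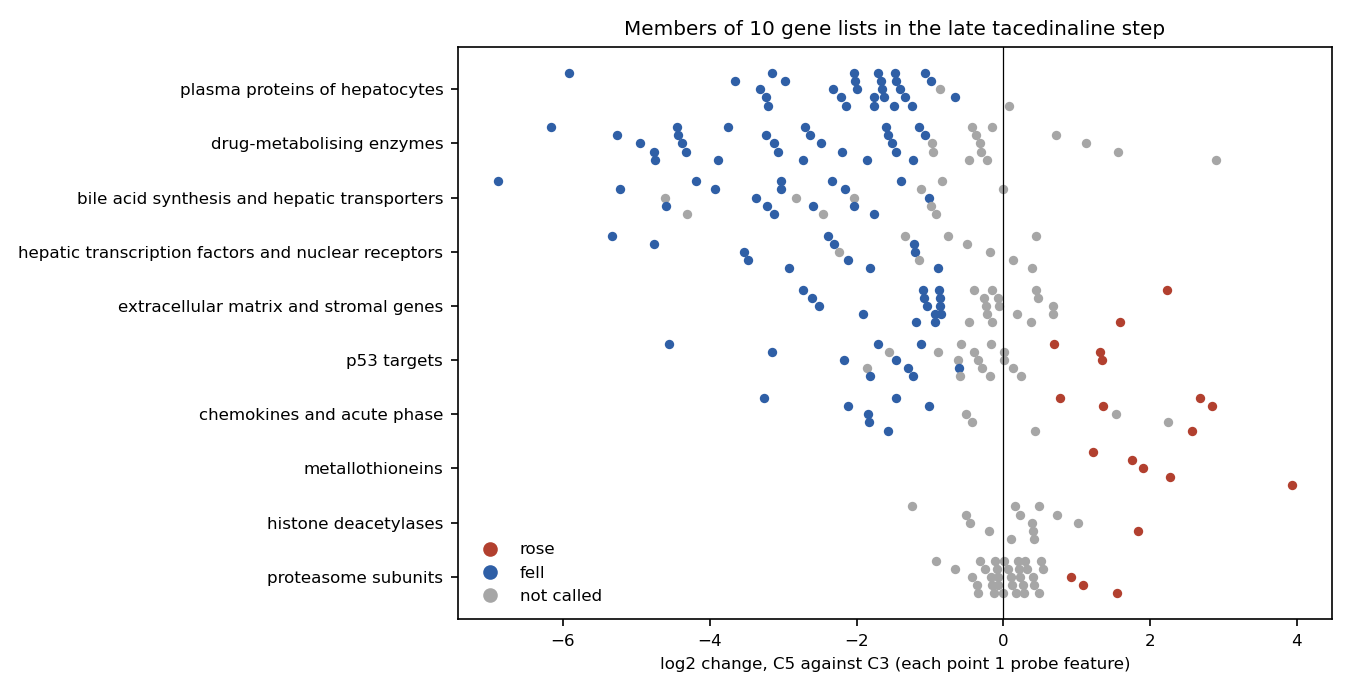
Log2 change at C5 against C3 of every tested feature of 10 gene lists, with features that rose in red, features that fell in blue and features not called in grey. Of 30 plasma protein features 28 fell, the 5 metallothionein features that passed the low-count filter rose, and HDAC3 was the 1 histone deacetylase feature called.

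Mocetinostat, another benzamide inhibitor of class I enzymes, and scriptaid, a hydroxamate, were measured at other concentrations, so their values are set beside those of tacedinaline without a comparison. From C3 (1.595 µM) to C5 (3.9 µM) of mocetinostat, 209 of 13065 features rose (1.6%) and 723 fell (5.53%). From C3 (44.46 µM) to C5 (94.5 µM) of scriptaid, 1271 of 12790 rose (9.94%) and 1919 fell (15%). The concentration ratios were 2.45 and 2.13, against 4.28 for tacedinaline. TDO2 changed by -4.65 ± 0.27 with mocetinostat and by -2.37 ± 0.50 with scriptaid, and HDAC3 by 1.11 ± 0.18 and 1.98 ± 0.30 on the log2 scale (SE), and each of these was called. For MT2A the log2 changes were 1.66 ± 0.22, which was called, and 0.92 ± 0.42, which was not (edgeR adjusted p 0.116). Of the 30 plasma protein features, 14 fell with mocetinostat and 24 with scriptaid, with medians of -1.21 and -1.70.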

How the data were processed

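The authors deposited raw counts per detector probe as whole numbers, with a row per probe and a column per library. The submitters' processing notes name bcl2fastq 2.20.422, fastp 0.23.2, STAR 2.7.10b and DESeq2 1.38.0 without a role, and the genome build used for counting is not given in the sources used here. Of 22069 rows, 1 lacked values in 88 of 118 libraries and was left out.

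One model over all 15 tacedinaline libraries was made with edgeR 4.0.16 (R 4.3.3). The filterByExpr function kept 12461 features, libraries were scaled by TMM, group means were fitted, and quasi-likelihood F tests were adjusted by Benjamini-Hochberg over all features tested. Levels are CPM on TMM-scaled totals. With 3 libraries per group, p-values measure the spread between libraries of a group, estimated over all 15 libraries. Each library of a group came from another batch of 1 cell line, so batch and library differences are not separated in that spread. Counts of reads without molecular identifiers are not counts of independent molecules. A bound against a group at the floor was computed from 3 counts per library.

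Replicate numbers mark the HepaRG batch in the labels and so pair the samples. Deviations from the group means of same-batch libraries of C3 and C5 correlated at -0.004, 0.036 and 0.083. With the batch as a block, 1054 features rose and 1659 fell at C5 against C3.

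Features were named by rule: the largest changes and smallest p among calls with the same direction in 3 of 3 batches, the largest within the classes, up to 4 called members per gene list by p, and the class I deacetylases. ALB, HNF4A, MT1X, GDF15, CCN2, LUM, COL1A1 and the further FN1 probes fall outside it and were chosen after their values were seen. The members and lists were chosen with earlier results of these data known. Promoters and symbols are from RefSeq (GRCh38.p14), which 18807 of 19470 symbols matched, 219 of those tested by an older name for the promoters. Alternatives were other scalings, filters, DESeq2 1.42.0, the batch block, thinning, probes summed per gene, other fold minima and steps per doubling of concentration. Further fits left out each batch, or each single library of C3 or C5. No single library of C1, C2 or C4 was left out. The paper given with the series describes other chemicals, and no value of it was used.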

Additional observations from a re-analysis of the deposited data

How the results depend on the processing

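Of 136 features named by rule, 113 kept both direction and call in all of the 18 alternative fits that tested them, and none changed direction. The number of late calls that were also made under an alternative was 2699 of 2706 under RLE scaling, 2604 under DESeq2, 2570 with library totals alone and 2334 after thinning. Library totals alone gave 1071 rising features at C3 against C1 and 272 rising features that went further. With a fold of at least 2, 507 features rose late. Per doubling of concentration, 174 rising and 382 falling features were only late. With the batch as a block, 1054 features rose and 1659 fell, and the call of HK2, a hexokinase, was lost (adjusted p 0.0523 by edgeR), with no other call among the named features changed by the block. The cause of these shifts was not tested.

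Leaving out a batch or 1 library of C3 or C5 gave 638 to 943 rising and 1184 to 1647 falling features at C5 against C3, 387 to 702 rising and 536 to 841 falling at C3 against C1, 74 to 152 rising and 319 to 464 falling that went further, and 8 to 66 rising and 89 to 260 falling that were only late. The lowest values came without batch 2, which left 2 libraries per group. Features near the floor at C5, such as A1CF and TAT, have few counts there, and depth limits how far their fall can be measured.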

Other observations

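Of 16 heat shock features 3 rose and 3 fell at C5 against C3, while 8.48% of all features rose and 13.2% fell. HSP90AA1, the inducible cytosolic chaperone, rose only late from 240.0, 302 and 327 CPM to 522, 571 and 569.7 CPM, while HSPB8, a small heat shock protein, fell only late from 342, 299 and 259 CPM to 82.8, 101 and 86 CPM. Of 24 features of the integrated and endoplasmic reticulum stress responses 2 rose and 5 fell, and the falling features numbered 2 without replicate 2 of C5 and 3 without batch 2. CHAC1, which degrades glutathione, lay at the floor at C3 and was at least 10.8-fold higher at C5, and TRIB3, a pseudokinase of the same response, fell by 0.95 on the log2 scale.

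For 28 listed neuronal genes 8 features had enough counts to be tested, and 3 rose, against 8.48% of all features. The low-count filter used every tacedinaline library, so a feature low at C3 could enter through groups where it was high. Among the rising features was CCK, the precursor of cholecystokinin, with 13.5, 14.1 and 15.4 CPM at C3 and 76.3, 99.7 and 112 CPM at C5. Another was SCG2, secretogranin, with 17.8, 25.5 and 19.1 CPM at C3 and 84.5, 60.9 and 67.5 CPM at C5. MYOZ2, a protein of the muscle Z line, turned, with a mean of 1.07 ± 1.15 CPM (SD, n = 3) at C1, 17.9 ± 2.99 CPM at C3 and 3.94 ± 2.99 CPM at C5. Of 17 features of immediate early genes 4 rose and 1 fell, against 8.48% and 13.2% of all features, with a median log2 change of 0.29. The falling one was MYC, the growth-promoting transcription factor, which turned as well, with log2 changes of 0.66 early and -1.02 ± 0.18 late. Of 35 proteasome features 3 rose, a share near the 8.48% of all features, and 0 rose without replicate 2 of C3 or without batch 2 and 1 without replicate 3 of C3 or after thinning. Of 35 nuclear-encoded respiratory chain features 3 fell, against 13.2% of all features.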
